A study of Mus musculus with 8 samples.

Results

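The carnitine shuttle genes Cpt1a, Cpt1b, Cpt2, Slc25a20, Crat, Crot and Slc22a5 were described by the open chromatin regions nearest to them in livers of fasted mice. A region belonged to a gene when that gene was its nearest protein-coding gene, by distance to the gene's span, within 100 kb. This gave 34 of the 49587 consensus regions of the series, with 8 at Cpt1a, 2 at Cpt1b, 3 at Cpt2, 2 at Slc25a20, 3 at Crat, 7 at Crot and 9 at Slc22a5, and no region was tied with another gene. All 34 had a peak in at least 1 library by construction of the consensus.

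ATAC-seq, which uses a transposase to cut accessible DNA, was run on 8 libraries from whole liver of male C57BL/6 mice aged 9 weeks and fasted for 24 h. The 4 genotypes, with 2 libraries each, were wild type (WT), liver knockout of Cpt2 (Cpt2 L-/-), knockout of Ppara (Ppara -/-), and both (Cpt2 L-/- ; Ppara -/-), in which the loss of Ppara is described as whole-body. The Cre driver behind the liver knockout, the deleted exons and whether replicates came from separate mice are not given in the sources used here. Wild type and Cpt2 knockout are called Ppara-intact below, and Ppara knockout and double knockout Ppara-null.

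Long-chain fatty acids cannot cross the inner mitochondrial membrane as coenzyme A esters. Carnitine palmitoyltransferase 1 at the outer membrane (Cpt1a in liver, Cpt1b in muscle) passes the acyl group to carnitine, the carrier Slc25a20 exchanges acylcarnitine for free carnitine across the inner membrane, and Cpt2 on the matrix side restores the coenzyme A ester for beta-oxidation. Slc22a5 imports carnitine into the cell, Crat handles short-chain acyl groups and Crot those leaving the peroxisome. Ppara is a nuclear receptor for fatty acids that binds DNA with RXR and is known to drive fatty acid oxidation genes in the fasted liver.

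Start windows are shown for Cpt2, Cpt1a, Slc25a20 and Slc22a5, whose start regions were called in all 8 libraries. The start region of Crot was too, and its window was searched but is not shown. Each window runs 5′ to 3′ from 250 bases before to 50 bases after the RefSeq start on GRCm38.p6, the assembly of mm10. The single capital marks the base at the start site, and longer runs of capitals mark a motif match. Slc22a5 was added after its values were seen.
Cpt2, chr4:107923540-107923839, minus strand: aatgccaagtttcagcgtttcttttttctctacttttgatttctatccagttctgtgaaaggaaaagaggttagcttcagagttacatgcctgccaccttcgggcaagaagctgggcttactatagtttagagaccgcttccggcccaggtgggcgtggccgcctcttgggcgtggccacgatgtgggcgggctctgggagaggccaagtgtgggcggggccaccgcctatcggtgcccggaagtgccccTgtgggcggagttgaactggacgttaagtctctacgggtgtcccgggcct
Cpt1a, chr19:3323051-3323350, plus strand: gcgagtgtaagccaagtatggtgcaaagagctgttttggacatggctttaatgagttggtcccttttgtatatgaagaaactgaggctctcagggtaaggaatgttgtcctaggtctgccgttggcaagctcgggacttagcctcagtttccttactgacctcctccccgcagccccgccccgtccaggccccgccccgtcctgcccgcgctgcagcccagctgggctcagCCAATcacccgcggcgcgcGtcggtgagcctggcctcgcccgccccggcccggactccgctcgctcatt
Slc25a20, chr9:108661886-108662185, plus strand: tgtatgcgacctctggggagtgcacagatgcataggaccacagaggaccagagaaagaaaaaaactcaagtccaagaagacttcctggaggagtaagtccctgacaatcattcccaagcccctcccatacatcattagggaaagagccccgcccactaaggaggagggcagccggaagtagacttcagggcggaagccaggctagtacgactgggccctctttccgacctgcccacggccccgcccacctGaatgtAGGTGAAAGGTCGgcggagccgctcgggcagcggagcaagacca
Slc22a5, chr11:53891654-53891953, minus strand: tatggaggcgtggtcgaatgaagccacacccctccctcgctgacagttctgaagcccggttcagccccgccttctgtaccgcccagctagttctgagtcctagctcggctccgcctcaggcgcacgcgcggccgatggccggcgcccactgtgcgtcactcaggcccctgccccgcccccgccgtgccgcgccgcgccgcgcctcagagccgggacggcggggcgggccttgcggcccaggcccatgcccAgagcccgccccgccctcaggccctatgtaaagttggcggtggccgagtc

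Of these windows, 234 bases at Cpt2, 233 at Cpt1a, 297 at Slc25a20 and all 300 at Slc22a5 lay inside the called region. The table of starts gave 5 of the 7 genes, and Crat and Cpt1b were not among them. Both strands were searched for a direct repeat of AGGTCA with 1 base between its copies, the element bound by PPAR with RXR, with at most 2 mismatches in its 12 fixed letters. The window of Slc25a20 held 1 match, AGGTGAAAGGTCG from base 7 of the transcript with 2 mismatches, and 3.86% of all 32851 promoter windows held a match. CCAAT lay at base -19 at Cpt1a and at base -74 at Crot, and 37.4% of windows held it. None of the 5 windows held TGACGTCA, the cAMP response element, which 1.79% held. A match is a run of letters and not a measured site.

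The files gave a list of peaks per library and no count per region, so a region was either called in a library or not. An overlap of 1 bp between a peak and a region sufficed for a call. No call means no peak past the cutoff of that list, whose lowest −log10 p was 7.11 to 7.82, and not closed chromatin. Ppara-intact lists held 28733 to 39296 peaks and Ppara-null lists 18132 to 22715, and read totals are not given, so depth is unknown. The comparison was therefore repeated in equal-number lists, cut in each library to the 18132 peaks of highest −log10 p, the length of the shortest list. The peak names carry a number, 441, 443, 446 and 4717 for the Ppara-intact and 6831 to 6834 for the Ppara-null libraries; its meaning is not given in the sources used here, and it cannot be told apart from Ppara status. Of 8 hepatocyte markers, all 8 had a peak within 1 kb of a gene end in each Ppara-intact library and 7 to 8 in the Ppara-null ones. Cps1 lacked one in Ppara knockout 2 and both double knockouts. Of 5 macrophage markers none had one in any library. Stellate or fibroblast markers were called for 1 to 3 of 5 with Ppara intact and 0 of 5 without it, cholangiocyte markers for 2 of 5 and 0 to 1 of 5, endothelial markers for 1 of 5 and 0 to 1 of 5, and lymphocyte markers for 0 to 1 of 5 and 0 of 5. The stellate markers Dcn and Col3a1, the cholangiocyte markers Krt19, Krt7 and Spp1, and the endothelial markers Stab2, Clec4g, Pecam1 and Cdh5 had no peak there in any library. Their part in the results was not tested, and in whole tissue fewer cells with an open region and less opening per cell cannot be told apart.

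Ppara-null libraries had fewer calls at the carnitine shuttle genes. Of the 34 regions, wild type libraries called 23 and 27, Cpt2 knockout libraries 32 and 28, Ppara knockout libraries 14 and 10, and double knockout libraries 17 and 15. The Ppara-intact and Ppara-null ranges did not overlap. Over all regions they did not overlap either, at 56.9% to 77.7% and 35.5% to 44.5% called. Both Cpt2 knockouts stood above both wild types here but below them in equal-number lists, at 16 and 16 regions against 19 and 17. As shares, 80.9% ± 10.9 of the regions were called in Ppara-intact and 41.2% ± 8.66 in Ppara-null libraries (SD, n = 4 each), a difference of 39.7 percentage points, against 30.6 points over all regions. In equal-number lists the shuttle genes had 50% ± 4.16 and 38.2% ± 7.20 called (SD, n = 4 each), 11.8 points apart, and all regions differed by 0.686 points. The ranges in these lists were 16 to 19 regions with Ppara intact and 10 to 15 without it. The double knockouts had 15 each and the Ppara knockouts 12 and 10. Over all regions the ranges were 36.3% to 36.4% and 35.3% to 36.0% called, also without overlap. These shares were not tested, because the genes were chosen with earlier results known.

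**Figure D1:**
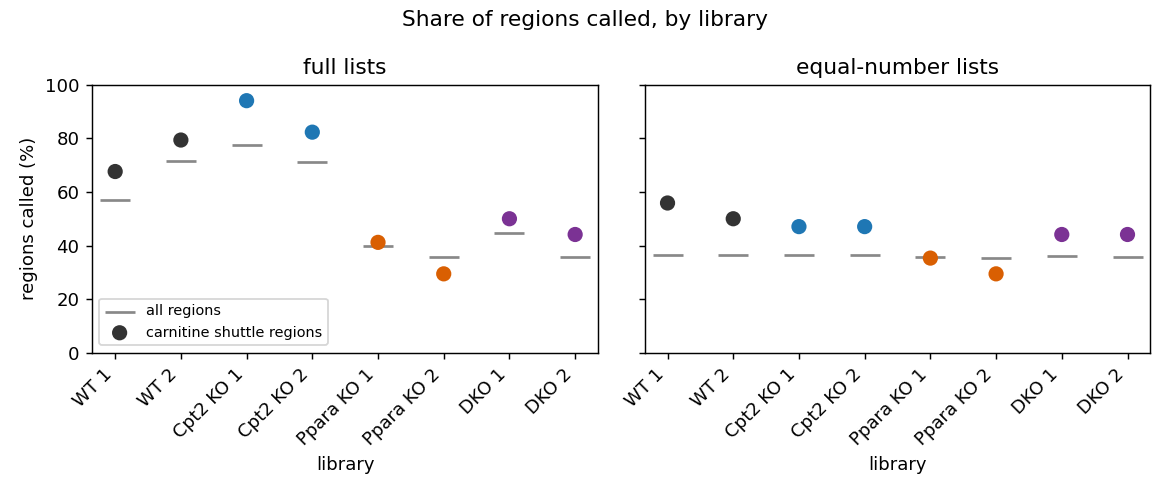
Percent of regions called in each library (WT, wild type; KO, knockout; DKO, double knockout), in the full lists on the left and in equal-number lists on the right. Dots are the 34 carnitine shuttle regions and grey bars all 49587 regions. The dots of the 4 Ppara-intact libraries lie above the Ppara-null ones in both panels, and so do the bars, which differ little on the right.

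Of the 34 regions, 5 (14.7%) had a peak in each of the 4 Ppara-intact libraries and in none of the others, where the share over all regions was 6.82%. They lay 1 each at Cpt1a, Cpt2, Crat, Crot and Slc22a5. In all, 21 regions (61.8%) were called in the 4 Ppara-intact libraries, against 48.5% of all regions, and 16 (47.1%) in no Ppara-null library, against 42.3%. None was called in the 4 Ppara-null libraries alone, which 0.0686% of all regions were. In equal-number lists 0.512% of all regions and no shuttle region were called in those alone. In equal-number lists 2 of the 5 kept this separation, Cpt2 region 2 and Crot region 3, a share of 5.88% of the 34 against 0.811% of all regions. At a −log10 q of at least 20, 7 regions (20.6%) were so separated, against 9.0% of all regions, and these included Cpt2 region 2, Crat region 2, Crot region 3 and Slc22a5 region 5. Without wild type replicate 1 the count was 8, with Crot region 6 and Slc22a5 regions 2 and 6 added. Leaving out a library loosens the rule for every region, and such counts have no share over all regions to be read against. Regions are numbered within each gene in the direction of transcription, and by rising coordinate at Crat and Cpt1b.

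**Figure D2:**
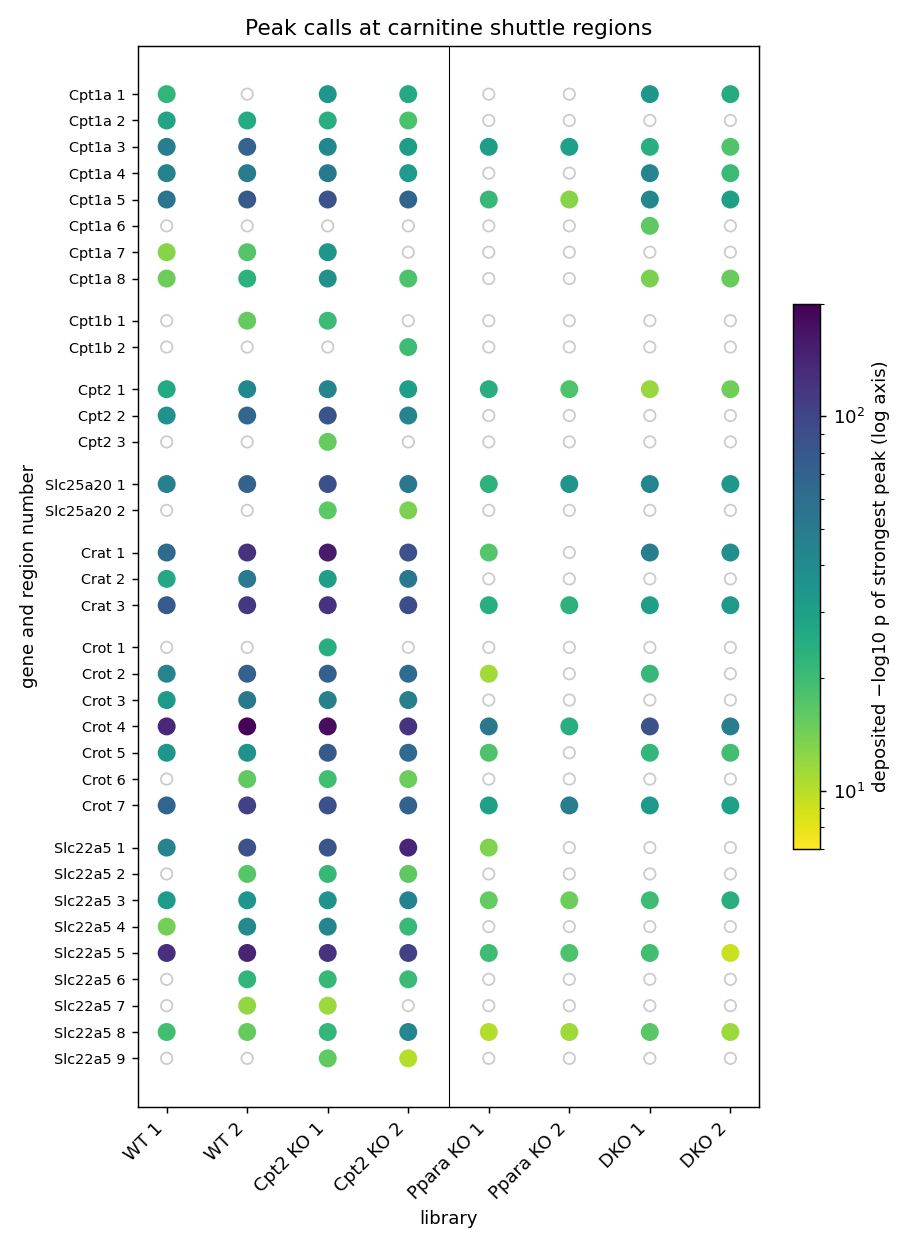
Peak calls at the 34 regions (rows, grouped by gene) in the 8 libraries (columns; WT, wild type; KO, knockout; DKO, double knockout). Filled dots are called regions coloured by the deposited −log10 p of the strongest peak on a log scale, and open dots have no peak; the start regions such as Cpt2 1 and Slc22a5 5 are filled in all 8 columns, and Cpt2 2 only in the left 4.

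The rate-limiting enzyme Cpt1a (chr19:3322326-3385735) had 7 and 6 of its 8 regions called in wild type, 7 and 6 in Cpt2 knockout, 2 and 2 in Ppara knockout, and 6 and 5 in double knockout. Both double knockouts thus had more calls at Cpt1a than both Ppara knockouts, while over all regions the double knockouts, at 44.5% and 35.5% called, overlapped the Ppara knockouts, at 39.8% and 35.6%. Regions 1, 4 and 8 were called in both double knockouts and no Ppara knockout, and region 6, inside the gene at chr19:3334139-3334388, was called in double knockout 1 alone, at a −log10 p of 16.2.
Region 4, inside the gene at chr19:3326245-3326856, had a −log10 p of 44.6 and 49.5 in wild type, 51.4 and 32.3 in Cpt2 knockout, and 43.5 and 20.5 in double knockout, with no peak in either Ppara knockout. Region 8, inside the gene at chr19:3353687-3354076, showed the same calls, with 14.9 and 23.2, 37.1 and 18.2, and 13.7 and 15.2 in the same order. Region 1, 2543 bp outside the gene at chr19:3319443-3319783, was called in wild type 1, in both Cpt2 knockouts and in both double knockouts at 34.2 and 25.7. The double knockout peaks of region 1 stood higher in their lists, at percentile 72.8 and 63, than the Ppara-intact ones, at 38.1 to 50.5, where the percentile is the share of a list's peaks with a lower −log10 p. In equal-number lists regions 1 and 4 were called in both double knockouts and region 8 in 1, and no Ppara knockout called any of them. The share of all regions separated between these genotypes in equal-number lists was not computed.

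The start region of Cpt1a was called in every library. Region 3 at chr19:3323118-3323523 had a deposited fold, MACS2's pileup over local background, of 4.75 and 5.45 in wild type, 3.99 and 3.62 in Cpt2 knockout, 5.0 and 5.10 in Ppara knockout and 3.99 and 3.82 in double knockout. Every fold in a genotype with Cpt2 intact lay above every fold in a genotype without it, which of all 11258 regions called in the 8 libraries 0.0355% showed, and at the shuttle genes this region alone. That order was noticed after the values were seen and was not tested, and its reverse was not counted. The order cannot arise at the many regions whose folds separate by Ppara status. The −log10 p of region 3 showed it within each Ppara status, with 49.1 and 69.1 in wild type, 41.8 and 31.3 in Cpt2 knockout, 31.2 and 29.6 in Ppara knockout and 24.1 and 17.6 in double knockout. Region 5, inside the gene at chr19:3333074-3333652, was also called throughout, with folds of 6.66 to 7.54 in Ppara-intact libraries, 5.11 and 3.58 in Ppara knockout and 6.22 and 5.92 in double knockout. Its Ppara knockout peaks were the lowest of the 8. Region 2, 1886 bp outside the gene at chr19:3320109-3320440, was called in the Ppara-intact libraries alone, at a −log10 p of 18.3 to 28.0, and in equal-number lists in 1 of them. Region 7 inside the gene at chr19:3336071-3336404 was called in both wild types at 12.9 and 17.2, in Cpt2 knockout 1 at 34.7 and in no Ppara-null library.

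Across the 7 genes, double knockout against Ppara knockout separated 3 regions (8.82%), regions 1, 4 and 8 of Cpt1a, all called in both double knockouts and in no Ppara knockout, against 2.33% of all regions in that direction. No shuttle region went the other way, and 1.45% of all regions did. Without Ppara knockout replicate 1, a looser rule for every region, the count was 5. Regions called in wild type, Cpt2 knockout and double knockout libraries throughout and in no Ppara knockout made up 1.3% of all regions. Regions 4 and 8 of Cpt1a were the 2 (5.88%) at the shuttle genes. The pattern was not particular to these genes. Of 39 regions at 11 other genes of carnitine supply and Cpt1 control, 3 (7.69%) were called in both double knockouts and no Ppara knockout. Of the same 39, 1 (2.56%) went the other way, and 3 (7.69%) were called in all but the Ppara knockouts. All 4 libraries of this pair carry name numbers of the 6831 to 6834 series.

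The muscle isoform Cpt1b (chr15:89416405-89425862) had little called at it. Region 1, 802 bp outside the gene at chr15:89415302-89415603, was called in wild type 2 and Cpt2 knockout 1, at a −log10 p of 15.4 and 20.3. Region 2 at the high-coordinate end, chr15:89425755-89426101, was called in Cpt2 knockout 2 alone at 19.9. Chkb, the next nearest protein-coding gene, lay 248 bp from region 2. No library had a peak within 1 kb of any of 5 muscle markers, Myh6, Actn2, Ckm, Acta1 and Myod1.

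The targeted gene Cpt2 (chr4:107903982-107923589) had its start region called in all 8 libraries, Cpt2 knockouts included. Region 1 at chr4:107923217-107923773 had a −log10 p of 26.0 and 42.0 in wild type, 44.0 and 30.6 in Cpt2 knockout, 24.4 and 17.9 in Ppara knockout and 11.7 and 14.6 in double knockout. The deposited folds, 4.9 to 6.22 with Ppara intact and 4.34 to 6.27 without it, overlapped. In equal-number lists region 1 was not called in Cpt2 knockout 2 or double knockout 1. Where called there, its percentile was 11.9 to 13.9 with Ppara intact and 22.6 to 54.1 without it. These calls do not check the Cpt2 genotype, since the deleted part is not named.
Region 2, inside the gene at chr4:107921928-107922335, with its midpoint 1.46 kb downstream of the start, was called in both wild types and both Cpt2 knockouts and had no peak where Ppara was lost. Its −log10 p was 36.8 and 67.1 in wild type and 83.3 and 43.2 in Cpt2 knockout, with folds of 6.42, 7.96, 9.26 and 5.89. In the 4 full lists it stood at percentile 61.7 to 82.0, above the start region of the same library in each. Region 3 at chr4:107921363-107921596 was called in Cpt2 knockout 1 alone. Of the 15169 genes with a region, 14 had the same number of regions as Cpt2 and the same number called in each library.

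The carrier Slc25a20 (chr9:108662136-108684642) had its start region called in all 8 libraries. Region 1 at chr9:108661889-108662465 had folds of 9.56 and 11.5 in wild type, 12.9 and 7.89 in Cpt2 knockout, 6.93 and 8.46 in Ppara knockout and 9.38 and 8.58 in double knockout, and the groups overlapped. In equal-number lists its percentile ranged over 41.9 to 65.6 with Ppara intact and 50.8 to 82.0 without it. Region 2, 557 bp into the gene at chr9:108662693-108662974, was called in both Cpt2 knockouts, at a −log10 p of 16.5 and 13.6, and in no other library.

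Slc22a5 (chr11:53864542-53891796), the carnitine importer of the plasma membrane, had its start region called in all 8 libraries, but with far smaller values in the Ppara-null ones. Region 5 at chr11:53891125-53892178 had a fold of 13.3 and 12.6 in wild type, 11.8 and 9.52 in Cpt2 knockout, 5.42 and 5.18 in Ppara knockout and 5.32 and 3.74 in double knockout. The −log10 p ranged over 105.0 to 142.9 with Ppara intact and 9.2 to 19.9 without it. The folds did not overlap by Ppara status, with every Ppara-intact fold the higher, as at 60.0% of the 11258 regions called in all 8 libraries. The −log10 p did not overlap either, and its share over all regions was not computed. In equal-number lists the percentile was 94.0 and 88.0 in wild type, 81.8 and 85.3 in Cpt2 knockout, 38.6 and 43.1 in Ppara knockout, and 24.8 and 0.513 in double knockout. Of the 6 shuttle regions called in all 8 of these lists, this one and Crat region 3 had every Ppara-intact percentile above every Ppara-null one, which 5.96% of the 9073 such regions did. None had the reverse order, which 5.06% did.

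Upstream of Slc22a5, towards Slc22a21, region 1 at chr11:53910900-53911510 lay 19104 bp outside the gene. It had a fold of 8.35 and 11.3 in wild type, 10.3 and 13.5 in Cpt2 knockout and 4.93 in Ppara knockout 1, with no peak in the other Ppara-null libraries. Region 4 at chr11:53902755-53903125 was called in the 4 Ppara-intact libraries alone, at a −log10 p of 14.3 to 43.5, and in equal-number lists in 2 of them. Region 3 at chr11:53904063-53904552, also upstream, was called in all 8 libraries, and so was region 8 at chr11:53859110-53859615, downstream of the gene. Region 2 at chr11:53908789-53909026 and region 6 inside the gene at chr11:53889232-53889524 were called in wild type 2 and both Cpt2 knockouts, and in no Ppara-null library. Region 9 at chr11:53850000-53850265 was called in the Cpt2 knockouts alone, at 15.8 and 10.2.

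Crat (chr2:30400476-30416017), the acyltransferase for short chains, had region 3 near its high-coordinate end, chr2:30415149-30415930, called in all 8 libraries. Its fold was 6.72 and 7.67 in wild type, 7.77 and 6.52 in Cpt2 knockout, 4.85 and 4.40 in Ppara knockout and 4.99 and 5.57 in double knockout. In equal-number lists its percentile ranged over 79.1 to 82.0 with Ppara intact and 53.1 to 75.4 without it, with no overlap. Region 2 inside the gene, chr2:30414184-30414573, was called in the Ppara-intact libraries alone, at a −log10 p of 26.9 to 52.6. Region 1, also inside the gene at chr2:30409443-30410061, had a −log10 p of 62.7 to 158 in Ppara-intact libraries, 17.1 in Ppara knockout 1 and 47.8 and 38.1 in the double knockouts, with no peak in Ppara knockout 2. Ptpa, the next nearest protein-coding gene, lay 120 bp from region 3 and 1.48 kb from region 2.

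**Figure D3:**
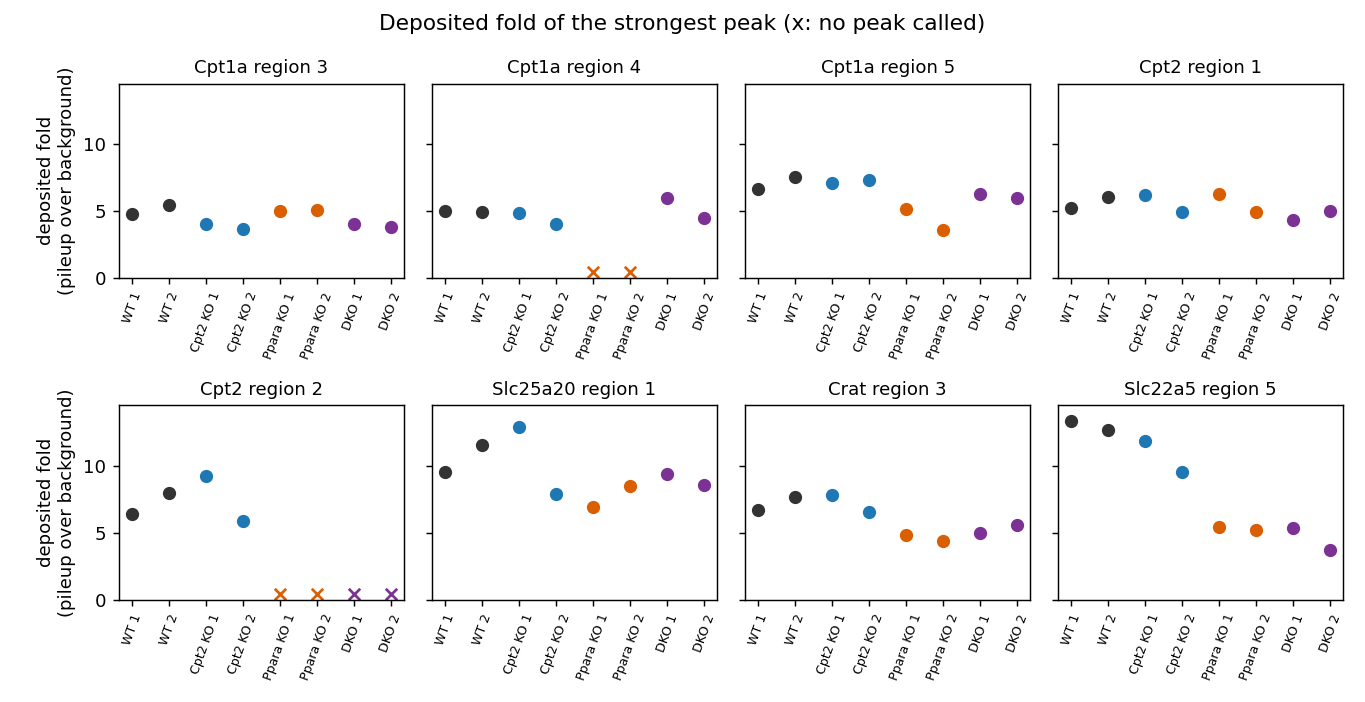
Deposited fold of the strongest peak (pileup over local background, no unit) at 8 regions, 1 dot per library (WT, wild type; KO, knockout; DKO, double knockout), with x for no peak. Slc22a5 region 5 lies between 9.52 and 13.3 in the 4 Ppara-intact libraries and between 3.74 and 5.42 in the others, Cpt2 region 1 overlaps between genotypes, and Cpt1a region 4 has no peak in Ppara knockout alone.

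Crot (chr5:8966033-8997146), the peroxisomal octanoyltransferase, had its start region 7 at chr5:8996540-8997508 called in all 8 libraries, with folds of 9.25 to 11.5 with Ppara intact and 7.07 to 9.28 without it. Its other 6 regions lay 31126 to 50285 bp outside the gene, where Crot is the nearest protein-coding gene and the next, Tmem243 or Abcb4, is 53.0 to 69.0 kb away. Region 4 at chr5:9034441-9035027 had the largest fold of the 34 regions in every library except Cpt2 knockout 2 and Ppara knockout 2, with 12.4 to 16.3 in Ppara-intact libraries, 10.3 and 7.52 in Ppara knockout and 12.8 and 9.66 in double knockout. Region 3 at chr5:9040626-9041096 was called in the Ppara-intact libraries alone, also in equal-number lists, at a −log10 p of 32.5 and 51.6 in wild type and 47.2 and 47.5 in Cpt2 knockout. This stretch upstream of Crot thus held a region called in all 8 libraries and one called with Ppara intact alone. Region 2 at chr5:9045909-9046369 had 43.9 to 72.4 in Ppara-intact libraries, 11.1 in Ppara knockout 1 and 21.3 in double knockout 1. Region 6 at chr5:9028272-9028747 was called in wild type 2 and both Cpt2 knockouts, at 14.9 to 19.4.

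**Figure D4:**
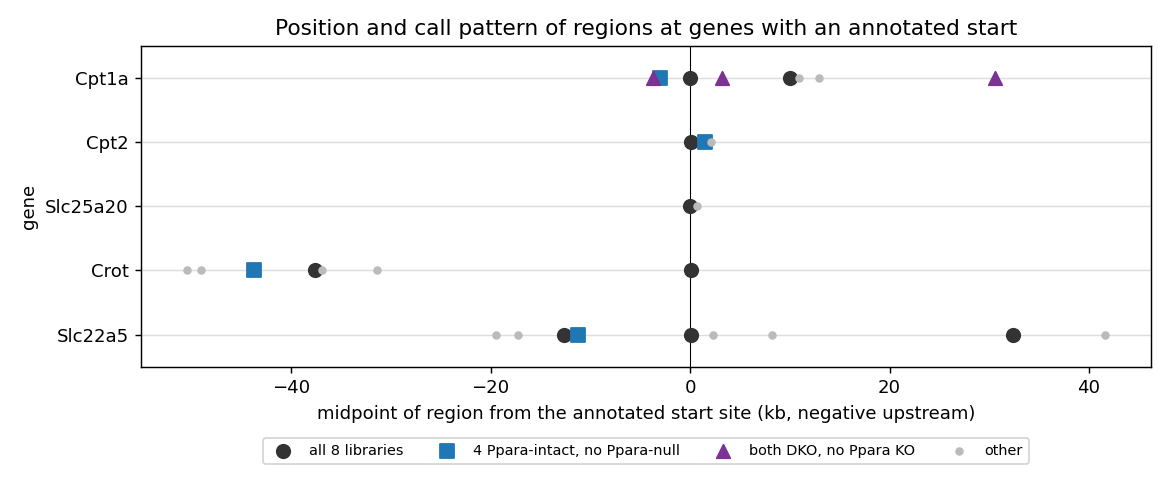
Midpoint of each region relative to the annotated start site in kb (negative upstream) for the 5 genes with an annotated start, with the symbol giving the call pattern (DKO, double knockout; KO, knockout). A region called in all 8 libraries lies at each start, and those called with Ppara intact alone lie away from it, 1.46 kb downstream at Cpt2 and at -43.7 kb at Crot.

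Of the 34 regions, 10 (29.4%) were called in all 8 libraries, against 22.7% of all regions. They included a start region at each of the 5 genes with an annotated start. Of these 10, 3 had the fold of every Ppara-intact library above that of every Ppara-null one, namely Cpt1a region 5, Crat region 3 and Slc22a5 region 5, where 60.0% of the 11258 regions called in all 8 did. None had the reverse order, which 0.222% did.

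At the shuttle genes, Cpt2 knockout and wild type were separated at fewer regions than genotypes that differ in Ppara, as over all regions. In Cpt2 knockout against wild type, 2 regions (5.88%), Slc25a20 region 2 and Slc22a5 region 9, were called in both Cpt2 knockouts and no wild type, against 3.63% of all regions, and none the other way, against 0.512%. Both stood at percentile 16.0 or lower of their lists, and in equal-number lists no shuttle region was separated. The share of all regions separated between this pair in equal-number lists was not computed. Under the looser rule without wild type replicate 2 the count was 5, and without either Cpt2 knockout library it was 4. By Cpt2 status across all 8 libraries no shuttle region was separated, as against 0.103% of all regions.

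Genotypes that differ in Ppara were separated at shuttle regions with and without Cpt2. List length and name number differ along with Ppara status, so they cannot be told apart from it. Against wild type, Ppara knockout lacked 8 regions (23.5%) called in both wild types, against 13.6% of all regions, and none the other way, against 0.46%. In double knockout against wild type, 7 (20.6%) were called in wild type only, against 12.9%, and none the other way, against 1.2%. In double knockout against Cpt2 knockout, 11 (32.4%) were called in Cpt2 knockout only, against 20.4%, and none the other way, against 0.597%. Both comparisons with wild type share its libraries, and both with double knockout share those. Without wild type replicate 1, which loosens the rule for every region, the counts against wild type were 13 each. Their share over all regions was not computed. In equal-number lists, counting either direction, 5 shuttle regions (14.7%) were separated between Ppara knockout and wild type, against 5.82% of all regions. Double knockout and wild type separated 5 (14.7%), against 6.43%, and double knockout and Cpt2 knockout 4 (11.8%), against 5.61%. In these lists 1 region of each of the latter pairs was called in the double knockouts only, Slc22a5 region 8 beside wild type and Cpt1a region 1 beside Cpt2 knockout. With 2 libraries a side no per-region test was made.

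The 11 other genes of carnitine supply and of malonyl-CoA, the inhibitor of Cpt1, had 39 regions. Of these, 3 (7.69%) were called in the 4 Ppara-intact libraries alone, 1 each at Slc22a4, a second organic cation and carnitine transporter, Acacb, which makes malonyl-CoA at the mitochondrion, and Mlycd, which removes it. That share was near the 6.82% of all regions. Ppara knockout lacked 9 (23.1%) called in both wild types, near the 23.5% of shuttle regions and against 13.6% of all regions. The other way went 1 (2.56%), against 0.46% of all regions. Double knockout lacked 6 (15.4%) called in both wild types, where the shuttle share was 20.6% and that of all regions 12.9%. It lacked 7 (17.9%) called in both Cpt2 knockouts, where the shuttle share was 32.4% and that of all regions 20.4%. None of the 39 regions was called in the 4 Ppara-null libraries alone, against 0.0686% of all regions. In all 8 libraries 12 (30.8%) were called, against 22.7% of all regions. Acacb alone kept its region in equal-number lists, 1 of the 39 (2.56%), against 0.811% of all regions. There, 6 of the 39 (15.4%) set wild type apart from Ppara knockout, near the shuttle share of 14.7% and against 5.82% of all regions. Of these, 4 were called in the wild types and 2 in the Ppara knockouts. Double knockout was set apart from wild type at 1 (2.56%) and from Cpt2 knockout at 2 (5.13%). The shuttle shares there were 14.7% and 11.8%, and those of all regions 6.43% and 5.61%. Bbox1, the last enzyme of carnitine synthesis, had 3 regions with 11 calls in the 4 Ppara-intact and 9 in the 4 Ppara-null libraries, and Tmlhe, the first enzyme, had no region.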

How the data were processed

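Reads were aligned with BWA and peaks called with MACS2 2.1.0 on mm10, per the submitters' processing notes, in 1 list per library. How duplicates and the Tn5 offset were handled is not given in the sources used here. The deposited fold (ratio of pileup to local background), −log10 p and −log10 q are the authors' values per peak, and the deposited score is 10 times the −log10 p, rounded down. A further table deposited by the authors holds positions alone: 49587 consensus regions, the same as all 8 lists merged where they overlap, and 8 tracks, each identical to 1 list.

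Regions were assigned to the nearest of 21900 protein-coding genes of RefSeq on GRCm38.p6, which gave no exons. Where several peaks met a region, that with the highest −log10 p was taken. Comparisons count regions called in every library of one side and in none of the other, read against the same count over all regions. No test was made, as the lists hold no counts and the genes and lists were chosen with earlier results of these data known. Every gene of the set is named, with each of its regions within 1 kb of a gene end or separated between groups. Assignment, calls and counts were tested on simulated data. Alternatives were equal-number lists, a −log10 q of at least 20, 50% cover of a region, a 10 kb limit and leaving out each library. Python 3.11.15, NumPy 2.4.6, pandas 2.3.3 and matplotlib 3.10.9 were used.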

Additional observations from a re-analysis of the deposited data

Results flagged for a closer look

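In 35 groups of 4 libraries of one Ppara status, the lowest and highest value were checked for a gap to the others, and 2 groups were singled out, where chance gives about 1 in 20. The deposited fold of Cpt1a region 4 was 4.01 in Cpt2 knockout 2, below the 4.84 to 4.96 of the other Ppara-intact libraries. The deposited fold of Slc22a5 region 5 was 3.74 in double knockout 2, below the 5.18 to 5.42 of the other Ppara-null libraries.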

How the results depend on the processing

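In equal-number lists, 2 regions were called in the Ppara-intact libraries alone, 0 were separated in Cpt2 knockout against wild type, 5 in Ppara knockout against wild type and 4 when double knockout was compared with Cpt2 knockout, and the difference in share by Ppara status was 11.8 points. These lists hold fewer peaks by construction. At a −log10 q of at least 20, 1 region was separated in Cpt2 knockout against wild type, and 1, Cpt1a region 1, by Cpt2 status. Neither count has a share over all regions to be read against. Within 10 kb, which leaves fewer regions, 3 were called in the Ppara-intact libraries alone, and 1 was separated in Cpt2 knockout against wild type. Double knockout gave 4 against wild type and 5 against Cpt2 knockout. Shares over all regions were not computed within 10 kb. Leaving out each library in turn, which loosens the rule by construction, gave 5 to 8 regions called with Ppara intact alone, 0 to 1 by Cpt2 status, 3 to 5 in Cpt2 knockout against wild type, 8 to 13 for Ppara knockout and 7 to 13 for double knockout beside wild type, 12 to 16 against Cpt2 knockout, 3 to 5 against Ppara knockout, and a difference in share of 35.3 to 44.1 points. Of all these values, 78 lay within 1.5 times the count, or within 1 SD of the share, and 19 did not. The 78 include counts of 0 set against a main count of 0, which had little room to move. Of the 5 regions called with Ppara intact alone, 10 values under other settings kept complete separation and 5 did not, at Cpt1a region 2, Crat region 2 and Slc22a5 region 4. No paired analysis was possible because the results are counts of calls with no test to which the replicate number could be added.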
